A study of Mus musculus with 6 samples.

Results

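A set of 10 genes of the interstitial extracellular matrix was followed across macrophage RNA sequencing libraries of obese mouse fat. The set holds the chains of the fibrillar collagens of types I, III and V (Col1a1, Col1a2, Col3a1, Col5a1, Col5a2), the chains of type VI collagen (Col6a1, Col6a2, Col6a3), and their partners Sparc and Fn1. These 10 genes were taken by symbol from the 57180 Ensembl gene rows of the table. The rule behind the set was selected on the measured HFD+MGIG against HFD values, so their own differences between the groups are given as a description, without a test. The libraries came from wild-type mice on a high-fat diet, 3 libraries without further treatment (HFD) and 3 from mice that also received magnesium isoglycyrrhizinate (HFD+MGIG), the magnesium salt of a licorice-derived saponin. All 6 were labelled as adipose tissue macrophages of white adipose tissue, with F4/80 and CD11b as sorting markers in the series text, although the protocol in the labels describes RNA from tissue. The sources used here do not give sex, age, dose or duration. They also leave unsaid whether the libraries stem from different mice, so that p-values reflect nothing beyond the scatter of these 6 libraries, possibly a technical one. The series asks which macrophage genes differ when MGIG is given during a high-fat diet.

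Fibrillar collagens are secreted as trimers of long chains that wind into a triple helix and then assemble into fibrils. Type I collagen is built from Col1a1 and Col1a2 chains, type III from Col3a1 alone, and type V, which sits inside type I fibrils and limits their width, from Col5a1 and Col5a2. Type VI collagen is made of Col6a1, Col6a2 and Col6a3 chains and forms beaded filaments around cells, adipocytes among them. Sparc encodes a secreted glycoprotein that binds collagen, and Fn1 encodes fibronectin, the glycoprotein on which collagen fibrils are laid down and to which integrins attach. In fat these genes are known mainly as products of fibroblasts and other stromal cells, while Sparc is also made by endothelial cells and Fn1 also by macrophages.

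The common design of the 8 collagen genes can be read in their exons, where glycine codons recur at the start of each triplet of codons of the helix. In the coding transcripts of GENCODE M21 (mm10) the longest unbroken run of such triplets was 338 in Col1a1, 339 in Col1a2, 344 in Col3a1, 338 in Col5a1 and 339 in Col5a2. It was 87 in Col6a1 and in Col6a2 and 45 in Col6a3, so the type VI chains have much shorter helices. Sparc and Fn1 held no run longer than 2 triplets. Within the run, exons of 54 bases that start on a glycine codon recurred, 21 in Col1a1 and 24 in Col3a1 against 3, 2 and 1 in Col6a1, Col6a2 and Col6a3. The first such exon of each collagen gene is shown 5′ to 3′ on the coding strand. Capitals mark the glycine codon that opens each triplet, the repeat that the 8 genes share. Other glycine codons are in lower case.
Col1a1: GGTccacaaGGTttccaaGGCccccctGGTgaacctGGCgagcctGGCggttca
Col1a2: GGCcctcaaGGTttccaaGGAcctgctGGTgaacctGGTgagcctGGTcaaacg
Col3a1: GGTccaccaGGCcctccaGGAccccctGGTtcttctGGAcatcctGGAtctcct
Col5a1: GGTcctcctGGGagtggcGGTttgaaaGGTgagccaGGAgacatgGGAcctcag
Col5a2: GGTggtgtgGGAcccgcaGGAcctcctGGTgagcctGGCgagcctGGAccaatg
Col6a1: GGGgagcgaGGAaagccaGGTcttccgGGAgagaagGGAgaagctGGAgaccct
Col6a2: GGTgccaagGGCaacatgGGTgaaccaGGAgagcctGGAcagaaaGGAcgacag
Col6a3: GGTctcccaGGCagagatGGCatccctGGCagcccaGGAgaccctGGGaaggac
These exons lie at chr11:94939904-94939957 (+) for Col1a1, chr6:4515481-4515534 (+) for Col1a2, chr1:45325360-45325413 (+) for Col3a1, chr2:27965251-27965304 (+) for Col5a1 and chr1:45422386-45422439 (-) for Col5a2. For the type VI chains they lie at chr10:76719623-76719676 (-) in Col6a1, chr10:76611948-76612001 (-) in Col6a2 and chr1:90791924-90791977 (-) in Col6a3. Both type I chains matched at 42 of 54 bases in this exon, the closest of the pairs compared, while Col6a2 and Col6a3 matched at 23.

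Fibronectin has another repeat structure and carries the Arg-Gly-Asp motif, known as the integrin attachment site. Its coding sequence held 2 in-frame codon runs for this motif, shown with the motif's codons in capitals. They are matches to the codons only, and whether a receptor binds at either of them was not tested.
Fn1 exon 30: gtcactggcCGTGGGGACagtccagca
Fn1 exon 40: catgttcccAGGGGAGACgtagactac
They lie at chr1:71606737-71606763 (-) and chr1:71597434-71597460 (-). The collagen chains held between 1 such codon run (Col3a1) and 7 (Col5a2), and Sparc held 0.

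Several of these genes are neighbours in the genome. Col3a1 (ENSMUSG00000026043; chr1:45311538-45349706, +) and Col5a2 (ENSMUSG00000026042; chr1:45374321-45503282, -) lie tail to tail, 24614 bases apart, with 0 protein-coding genes between them. Col6a2 (ENSMUSG00000020241; chr10:76595762-76623630, -) and Col6a1 (ENSMUSG00000001119; chr10:76708792-76726168, -) lie 85161 bases apart on the same strand, also with 0 protein-coding genes between them. The other genes are Col1a1 (ENSMUSG00000001506; chr11:94936224-94953042, +), Col1a2 (ENSMUSG00000029661; chr6:4504814-4541544, +), Col5a1 (ENSMUSG00000026837; chr2:27886425-28039514, +), Col6a3 (ENSMUSG00000048126; chr1:90765923-90843971, -), Sparc (ENSMUSG00000018593; chr11:55394500-55423183, -) and Fn1 (ENSMUSG00000026193; chr1:71585520-71653200, -). Exons of Col5a1 overlap those of the non-coding genes 2810430I11Rik and Gm13372, and exons of Fn1 those of Apol7d, all on the opposite strand, while Col3a1 overlaps the miRNA gene Gm47302 on its own strand. As no strand is stated for the counts, reads of the opposite strands cannot be told apart there.

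The 2 groups differed in depth and in the share of counts on genes that macrophages are not known to use, and this bears on every value that follows. Total counts ran from 14437605 to 16740417 on the diet alone and from 2214456 to 4904302 with MGIG. Protein-coding genes of the olfactory, vomeronasal, taste receptor, keratin-associated and beta-defensin families, 1596 genes called silent families here, held 0.0624% to 0.280% of counts in HFD and 2.93% to 6.42% in HFD+MGIG. HFD+MGIG 2 had the lowest total and the highest such share, and its log2 CPM correlated with the HFD libraries at 0.527 to 0.597 across genes, against 0.792 to 0.871 for the other HFD+MGIG libraries. For each gene a background bound was therefore set in each library: the level per kb that 90% of silent-family genes do not exceed, multiplied by the gene's exon length. Levels are given as CPM, counts scaled to a library total of 1000000.

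In HFD the 10 genes together took 0.413% ± 0.0694 of all counts (SD, n = 3), and in HFD+MGIG 0.117% ± 0.0352. Per kb of exon, the order of levels in HFD was led by Sparc with 349 ± 59.2 CPM per kb, higher than 99.3% of the 15114 protein-coding genes tested outside the silent families. Col3a1 followed with 126 ± 25.6 CPM per kb, and these top levels differed from each other and from the rest by more than their spread. Col1a1, Col1a2, Col6a1 and Fn1 came next with 47.0 ± 7.95, 38.9 ± 8.88, 38.5 ± 8.97 and 31.6 ± 5.51 CPM per kb, neighbours that did not differ beyond their spread. Col6a2 had 11.5 ± 2.09 CPM per kb. At the foot of the order stood Col5a1, Col6a3 and Col5a2 with 5.04 ± 1.10, 4.87 ± 0.709 and 4.56 ± 1.53 CPM per kb, again within each other's spread, and above 55.1% to 57.9% of the protein-coding genes. With the length of the longest coding transcript in place of all exons, Col1a2 stood above Col1a1, at 90.5 ± 20.6 against 52.0 ± 8.80 CPM per kb, because the Col1a2 locus has many annotated exon bases outside that transcript. In HFD+MGIG Sparc led again, with 121 ± 23.9 CPM per kb, and Col3a1 had 22.5 ± 10.7.

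**Figure D1:**
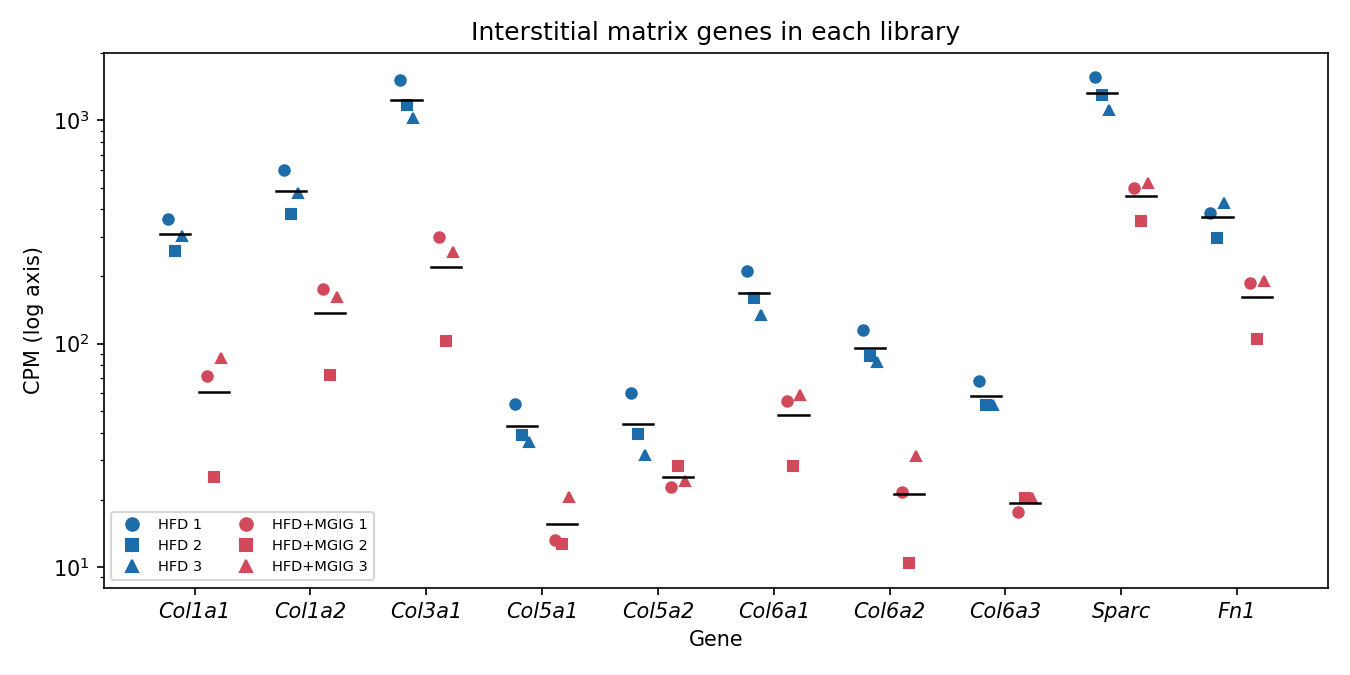
CPM of the 10 genes (log axis) in the 3 HFD libraries (blue) and the 3 HFD+MGIG libraries (red), one symbol per library, with a black line at the group mean. Every gene's red points lie below its blue points, by the least for Col5a2 and by the most for Col3a1.

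All 10 genes were at lower levels in HFD+MGIG, and in none did the groups overlap. The ratio of the HFD mean to the HFD+MGIG mean ran from 1.74 for Col5a2 to 5.60 for Col3a1. Of all 23055 filtered genes, 23.7% had every HFD+MGIG library below every HFD library, and 35.5% of the 15114 protein-coding genes did. In edgeR's quasi-likelihood test over all filtered genes 10 of the 10 were among those called lower at an adjusted p under 0.05, against 17.8% of all filtered genes and 26.8% of the protein-coding ones. As this contrast was known when the genes were chosen, nothing is read from their count. Their median log2 fold change was −1.98, against 0.38 over all filtered genes and −0.53 over the protein-coding genes. In bulk RNA of this kind, fewer cells of a type and less of the transcript per cell cannot be told apart.

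Type I collagen is the main tensile component of connective tissue. Col1a1 had 363, 259 and 303 CPM in HFD 1, 2 and 3, and 71.6, 25.3 and 85.8 CPM in HFD+MGIG 1, 2 and 3. The lowest HFD library was thus 3.02 times the highest HFD+MGIG library, and HFD+MGIG 2 stood well under the other libraries of its group. Col1a2 had 599, 379 and 473 CPM in HFD against 176, 72.3 and 162 CPM in HFD+MGIG. Here too HFD 1 was the highest library and HFD+MGIG 2 the lowest. The log2 fold changes were −2.59 (SE 0.521) for Col1a1 and −2.07 (SE 0.503) for Col1a2.

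Col3a1, the only chain of type III collagen, had the highest HFD level per kb of the collagens in the set. Its libraries read 1513, 1171 and 1023 CPM on the diet alone, against 301, 103 and 258 CPM with MGIG. The groups were separated by a factor of 3.39 between their nearest libraries, the widest gap of the 10 genes, and the log2 fold change was −2.74 (SE 0.574). Both type V chains were far lower per kb. Col5a1 read 53.5, 38.9 and 36.1 CPM on the diet alone, against 13.3, 12.6 and 20.6 CPM with MGIG (log2 fold change −1.74, SE 0.315). Col5a2 read 60.1, 39.4 and 31.7 CPM on the diet alone, against 22.9, 28.4 and 24.3 CPM with MGIG. Its groups came closest of all, with the lowest HFD library 1.12 times the highest HFD+MGIG library and a log2 fold change of −1.11 (SE 0.293). Although Col3a1 and Col5a2 are neighbours on chromosome 1, they stood at the opposite ends of the set in the size of their measured difference. Col5a2 was under its background bound in every HFD+MGIG library, with a mean of 25.2 against 61.4 CPM. Its fold change therefore gives no upper limit on its difference.

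Among the type VI chains Col6a1 had the highest level per kb. It read 212, 159 and 135 CPM on the diet alone, against 55.4, 28.4 and 59.1 CPM with MGIG. Its genomic neighbour Col6a2 read 116, 88.4 and 83.1 CPM on the diet alone, against 21.7, 10.4 and 31.4 CPM with MGIG. Col6a3, whose C-terminal fragment is known as endotrophin, read 68.0, 53.3 and 53.4 CPM on the diet alone, against 17.6, 20.3 and 20.4 CPM with MGIG. For each of the 3 chains the lowest HFD library was at least 2.28 times the highest HFD+MGIG library. The log2 fold changes were −2.08 (SE 0.425) for Col6a1, −2.42 (SE 0.424) for Col6a2 and −1.89 (SE 0.278) for Col6a3.

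Per kb, Sparc was the highest gene of the set in HFD+MGIG and Fn1, at 13.8 ± 4.14 CPM per kb, came after Sparc and Col3a1. Col1a2 (11.0 ± 4.54) and Col6a1 (10.9 ± 3.82) lay within the spread of Fn1. With the length of the longest coding transcript, Col1a2 stood above Fn1, at 25.6 ± 10.5 against 19.4 ± 5.82 CPM per kb. Sparc read 1558, 1299 and 1112 CPM on the diet alone, against 500, 355 and 522 CPM with MGIG (log2 fold change −1.82, SE 0.488). As for most of the collagens, HFD 1 was its highest library and HFD+MGIG 2 its lowest. Fn1 read 385, 299 and 424 CPM on the diet alone, against 188, 105 and 190 CPM with MGIG (log2 fold change −1.47, SE 0.452). It was the only one of the 10 genes whose highest HFD library was not HFD 1.

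The set did not vary equally within the groups. In HFD the coefficient of variation of CPM lay between 14.6% (Col6a3) and 33.5% (Col5a2). In HFD+MGIG it lay between 8.21% (Col6a3) and 52.0% (Col1a1), and for 8 of the 10 genes HFD+MGIG 2 was the lowest library. The exceptions were Col5a2 and Col6a3, which had their lowest HFD+MGIG level in HFD+MGIG 1 and were under their bounds in every library of that group. In 9 of the 10 genes HFD 1 was the highest library. Across the 6 libraries, log2(CPM + 1) of Col1a1 was most like that of Col6a2 (Pearson's r = 0.994) and Col3a1 most like Col6a1 (r = 0.995). Col5a2 was the least like member for every other gene except Col6a3, down to r = 0.618 with Fn1. These correlations are over 6 libraries that fall into separate groups of unlike depth, and describe no more than that.

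Measured against the background bound, the set divided into genes that stayed above it and genes that did not. In HFD every one of the 10 genes was above its bound in all 3 libraries. In HFD+MGIG, Sparc (459 ± 90.5 CPM against a mean bound of 24.3) and Col3a1 (221 ± 105 CPM against 62.9) were above it in all 3 libraries. Col1a1, Col1a2, Col6a1 and Fn1 were above it in HFD+MGIG 1 and 3 and below it in HFD+MGIG 2, for Fn1 by little, with 105 CPM against 110 CPM. The remaining 4 genes, Col5a1, Col5a2, Col6a2 and Col6a3, were below it in every HFD+MGIG library, with means of 15.5, 25.2, 21.2 and 19.4 CPM against bounds of 54.4, 61.4, 53.3 and 76.6 CPM. For these 4 the HFD+MGIG counts could be background in full, so their fold changes give no upper limit on the difference, and the part of the background in them was not tested.

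**Figure D2:**
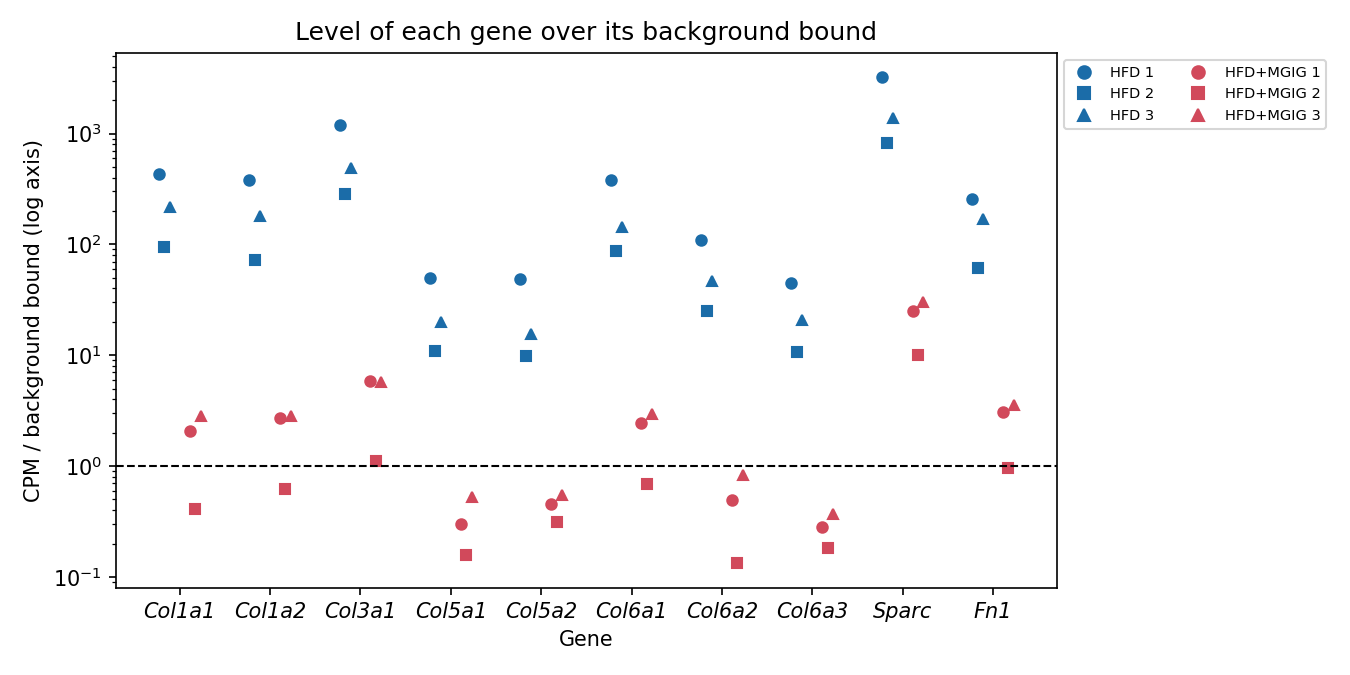
CPM of each gene divided by its background bound in the same library (log axis), for HFD (blue) and HFD+MGIG (red) libraries, with a dashed line where both are equal. All blue points lie above the line, while the red points of Col5a1, Col5a2, Col6a2 and Col6a3 lie below it and only Col3a1 and Sparc have all 3 red points above it.

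A second fit used 2604 protein-coding genes whose mean bound over all 6 libraries is at most 0.25 of their mean CPM, scaled on themselves. As this mean includes HFD, a gene can pass through its HFD level alone. Col1a1, Col1a2, Col6a1 and Fn1 passed though they were under their bounds in HFD+MGIG 2. The fit thus limits background on average, not within HFD+MGIG. It held 6 of the 10 genes. On this scale the log2 fold changes were −1.87 (SE 0.216) for Col3a1, −1.70 (SE 0.239) for Col1a1, −1.18 (SE 0.192) for Col1a2, −1.15 (SE 0.192) for Col6a1, −0.81 (SE 0.179) for Sparc and −0.52 (SE 0.158) for Fn1. They kept their order apart from Col1a2 and Col6a1, which lay close together in both fits, and the median of all genes in this fit was 0.03.

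**Figure D3:**
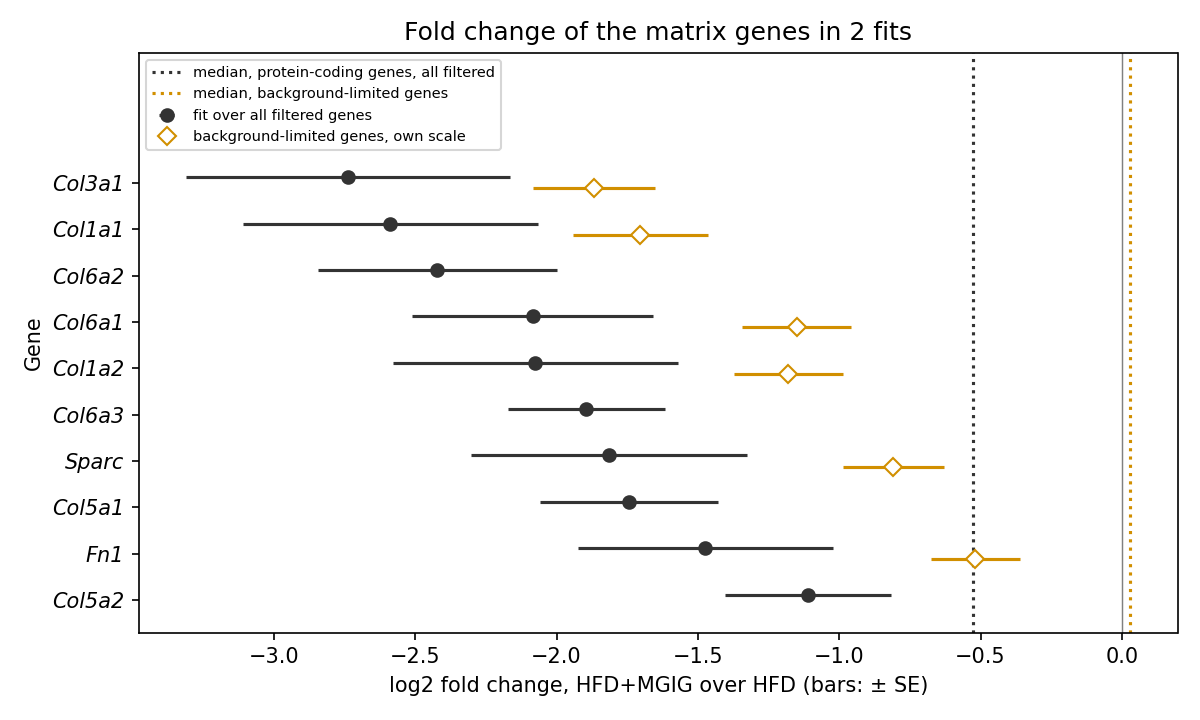
log2 fold change of HFD+MGIG over HFD with its SE for the 10 genes, in the fit over all filtered genes (filled circles) and, for the 6 genes it holds, in the fit of background-limited genes on their own scale (open diamonds). Dotted lines mark the median of the protein-coding genes in the first fit (−0.53) and of all genes in the second (0.03). All circles lie to the left of −0.53, from −2.74 for Col3a1 to −1.11 for Col5a2, and all diamonds to the left of 0.03.

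Ratios between genes of the same library need no scaling to depth. They do include background, whose part in them was not tested and which could hold all HFD+MGIG counts of Col5a1, Col5a2, Col6a2 and Col6a3. Per kb of exon, the ratio of Col1a1 to Col1a2 read 1.15, 1.29 and 1.21 on the diet alone (libraries 1, 2 and 3), against 0.768, 0.663 and 1.00 with MGIG. The type V ratio of Col5a1 to Col5a2 read 1.01, 1.11 and 1.28 on the diet alone, against 0.654, 0.502 and 0.959 with MGIG. In both trimers the first-named chain was thus relatively lower in every HFD+MGIG library, though HFD+MGIG 3 lay near the HFD values and both type V chains were under their bounds. The ratio of Col6a1 to Col6a2 was 3.33 ± 0.214 in HFD and 4.55 ± 0.857 in HFD+MGIG, without overlap. That of Col6a3 to Col6a1 overlapped, with 0.128 ± 0.0145 and 0.168 ± 0.0812.

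Set against Col3a1, Col1a1 was at 0.378 ± 0.0583 of its level in HFD and 0.407 ± 0.0787 in HFD+MGIG, with overlapping libraries. Col1a2 was at 0.311 ± 0.0547 and 0.505 ± 0.0479 of the Col3a1 level. Sparc was 2.79 ± 0.106 times Col3a1 in HFD and 6.18 ± 2.48 times in HFD+MGIG, and the Fn1 ratio to Col3a1 went from 0.259 ± 0.0776 to 0.668 ± 0.175. For Sparc and Fn1 every HFD+MGIG library was above every HFD library in this ratio, and the highest was HFD+MGIG 2 with 8.98 and 0.862. The ratio of Sparc to Fn1 overlapped between the groups, with 11.3 ± 2.85 and 9.03 ± 1.21. Col3a1 was thus lower relative to both partner genes in HFD+MGIG, but not to these alone. The ratios of Col5a1, Col5a2, Col6a1 and Col6a3 to Col3a1 were also higher without overlap, at 2.38, 4.29, 1.69 and 2.35 times their HFD means. Those of Col1a1 and Col6a2 overlapped. Col5a1, Col5a2 and Col6a3 were under their bounds in HFD+MGIG.

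**Figure D4:**
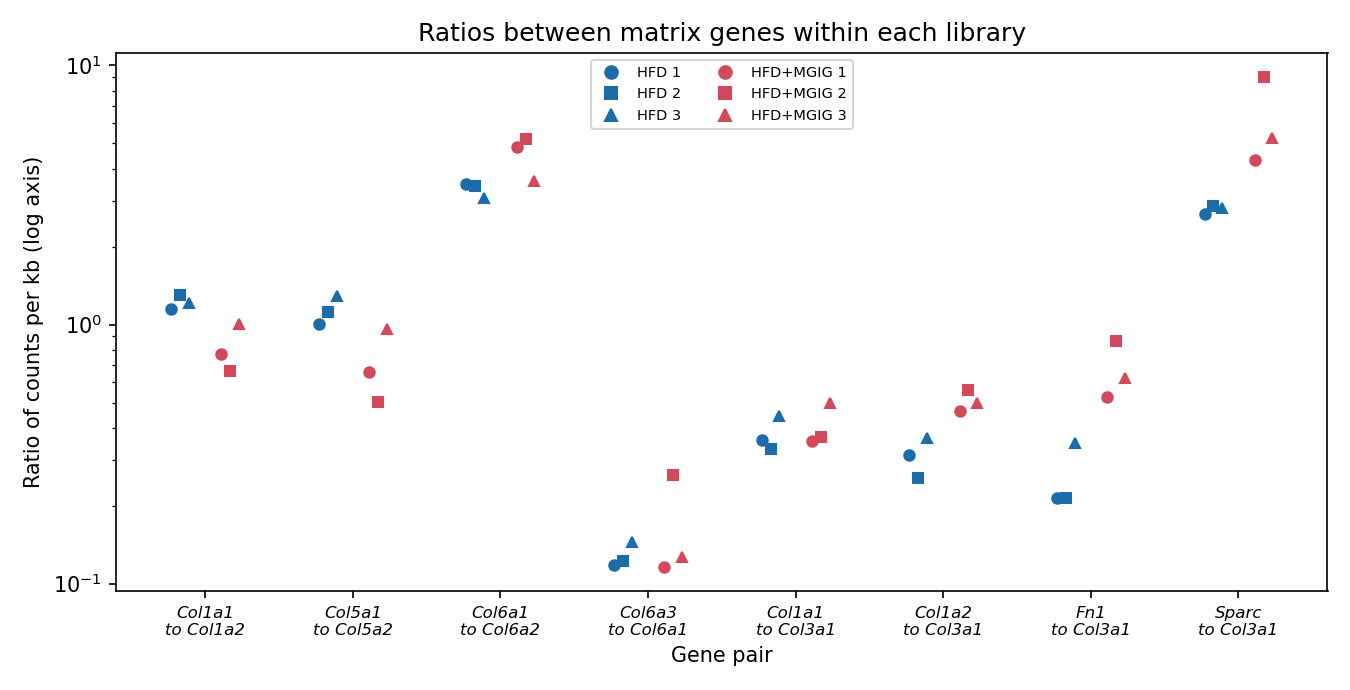
Ratios of counts per kb of exon between pairs of the genes within each library (log axis), HFD in blue and HFD+MGIG in red. The groups do not overlap for Col1a1 to Col1a2, Col5a1 to Col5a2, Col6a1 to Col6a2, or for Col1a2, Fn1 and Sparc over Col3a1, and they overlap for Col6a3 to Col6a1 and Col1a1 to Col3a1.

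The other genes of collagen biology were taken from 7 lists of 120 genes in all, of which 115 were tested. In edgeR's test 61 of them were lower in HFD+MGIG (53.0%, against 17.8% of all filtered genes and 26.8% of protein-coding genes) and 7 were higher (against 42.9% and 21.0%), with a median log2 fold change of −1.07. Without HFD+MGIG 3 the lower count was 39, and without the other libraries 46 to 70. On the background-limited scale 12 of 40 were lower and 2 higher, against 6.26% and 4.49% of that fit's genes. As above, a gene can enter that fit through its HFD level alone. The lists were drawn up with earlier results of these data known. The shares of all genes given here are the ones to set beside the count of each list that follows.

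Proteins that fold and modify procollagen in the endoplasmic reticulum had 12 of 20 genes lower and 1 higher, with a median log2 fold change of −1.11. Serpinh1, the collagen-specific chaperone HSP47, read 164, 142 and 159 CPM on the diet alone, against 46.7, 17.2 and 44.5 CPM with MGIG. The groups were far apart, with a log2 fold change of −2.35 (SE 0.452, adjusted p of 0.000792 in edgeR) and one of −1.45 among background-limited genes (adjusted p of 0.00582 in edgeR). It was the only one of 9 genes of the list called on that scale. Fkbp10, a prolyl isomerase of collagen folding, was also lower (−1.69 with SE 0.381, adjusted p of 0.00219 in edgeR), at 8.19 CPM in HFD+MGIG against a bound of 18.8. The abundant general enzymes were not called: P4hb, a subunit of prolyl 4-hydroxylase and a disulfide isomerase, had 486 ± 16.7 and 251 ± 126 CPM (adjusted p of 0.0625 in edgeR; 0.00322 without HFD+MGIG 2 and 0.0385 without HFD+MGIG 1), and Ppib, a cyclophilin, had 123 ± 13.3 and 87.9 ± 13.6 CPM (adjusted p of 0.0666 in edgeR; 0.0106 without HFD+MGIG 2). The list's count was 6 without HFD+MGIG 3.

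Propeptide processing and cross-linking had 7 of 12 genes lower, 4 without HFD 1 or without HFD+MGIG 3. Lox, the lysyl oxidase that starts collagen cross-linking, averaged 94.7 ± 19.4 CPM on the diet alone and 50.9 ± 17.2 CPM with MGIG (−1.16 with SE 0.384, adjusted p of 0.0207 in edgeR), a call that ended when HFD 1 (0.0553) or HFD+MGIG 3 (0.0761) was left out. Pcolce, an enhancer of procollagen C-proteinase, had 60.6 ± 10.6 and 24.3 ± 6.22 CPM (−1.59 with SE 0.331, adjusted p of 0.00135 in edgeR), near its bound of 24.5 CPM in HFD+MGIG. Pcolce2, its paralog, was not called, with 24.1 ± 6.79 and 33.5 ± 4.98 CPM (adjusted p of 0.623 in edgeR).

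Fibril-associated and matricellular proteins had 18 of 24 genes lower and 0 higher in edgeR's test (18 at an unadjusted p under 0.05). DESeq2 also called 18 lower and 0 higher. The lower count was 13 without HFD+MGIG 3 and 13 with at least 5 CPM in 3 libraries. In the background-limited fit it was 6 of 13. Thbs1, thrombospondin, averaged 814 ± 75.1 CPM on the diet alone and 190 ± 92.9 CPM with MGIG (−2.36 with SE 0.558, adjusted p of 0.00302 in edgeR). Eln, elastin, had 131 ± 14.9 and 36.0 ± 15.1 CPM (−2.13 with SE 0.432, adjusted p of 0.00113 in edgeR), the latter below its bound of 51.9 CPM. Dcn, decorin, a small proteoglycan that binds collagen fibrils, stood apart from the collagens it binds and was not called. Dcn read 1158, 569 and 680 CPM on the diet alone, against 1193, 968 and 820 CPM with MGIG, overlapping groups that lay far above the bound of 37.4 CPM. The log2 fold change of Dcn was 0.03 (SE 0.480, adjusted p of 0.965 in edgeR) over all filtered genes and 1.08 (adjusted p of 0.0763 in edgeR) on the background-limited scale. Ecm1 was not called either, with 382 ± 63.2 and 281 ± 114 CPM (adjusted p of 0.212 in edgeR).

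Receptors that bind collagen or fibronectin had 8 of 18 genes lower, 5 without HFD+MGIG 3. Itgb1, the beta chain shared by the collagen-binding integrins and the fibronectin receptor, had 902 ± 56.3 and 317 ± 148 CPM (−1.78 with SE 0.537, adjusted p of 0.0129 in edgeR; 0.0604 without HFD+MGIG 3). Adgrg1, an adhesion receptor that binds type III collagen, had 219 ± 5.48 and 60.7 ± 26.95 CPM (−2.12 with SE 0.469, adjusted p of 0.00199 in edgeR). Both were also called lower on the background-limited scale (adjusted p of 0.0144 and 0.00710 in edgeR). Genes of collagen uptake and breakdown had 5 of 14 lower, 2 without HFD 1, HFD 3 or HFD+MGIG 3, against 26.8% of protein-coding genes, and 1 lower and 1 higher of 8 on the background-limited scale. Ctsb, the lysosomal protease cathepsin B, had 6122 ± 750 and 4077 ± 1915 CPM, and Mrc1, a receptor that takes up collagen fragments, had 1106 ± 178 and 676 ± 397 CPM, neither of them called (adjusted p of 0.228 and 0.175 in edgeR). Without HFD+MGIG 2, Mrc1 was called (0.0445).

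TGF-beta signalling, the best known inducer of collagen genes, had 10 of 16 genes lower, 7 without HFD 2. Ccn2, a target of the pathway, had 132 ± 40.4 and 38.3 ± 7.12 CPM (−2.09 with SE 0.397, adjusted p of 0.000745 in edgeR). Tgfb3 had 42.1 ± 3.73 and 14.3 ± 3.56 CPM (−1.84 with SE 0.308, adjusted p of 0.000346 in edgeR), below its HFD+MGIG bound of 21.7 CPM. Smad7, the inhibitor that the pathway induces, had 17.1 ± 1.22 and 6.11 ± 0.955 CPM (−1.80 with SE 0.332, adjusted p of 0.000589 in edgeR), also under its bound, and Ccn2 was the only one of 3 genes of the list called on the background-limited scale (adjusted p of 0.0243 in edgeR).

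Of the other interstitial collagens, 1 of 11 tested genes was lower and 6 were higher, against 42.9% of all filtered genes higher. With at least 5 CPM in 3 libraries 5 were tested and 2 were higher, and the background-limited fit held 0 of them. The lower one was Col5a3, a further chain of type V collagen, with 26.6 ± 10.6 and 7.93 ± 4.64 CPM (−1.94 with SE 0.445, adjusted p of 0.00256 in edgeR). The higher ones included Col11a1, a cartilage fibril chain with 0.706 ± 0.599 and 11.1 ± 3.89 CPM (3.57 with SE 0.729, adjusted p of 0.00117 in edgeR), and Col27a1 with 2.09 ± 0.320 and 14.9 ± 10.7 CPM. Their HFD+MGIG means lay below bounds of 81.6 and 83.4 CPM, and the part of the background in these calls was not tested.

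**Figure D5:**
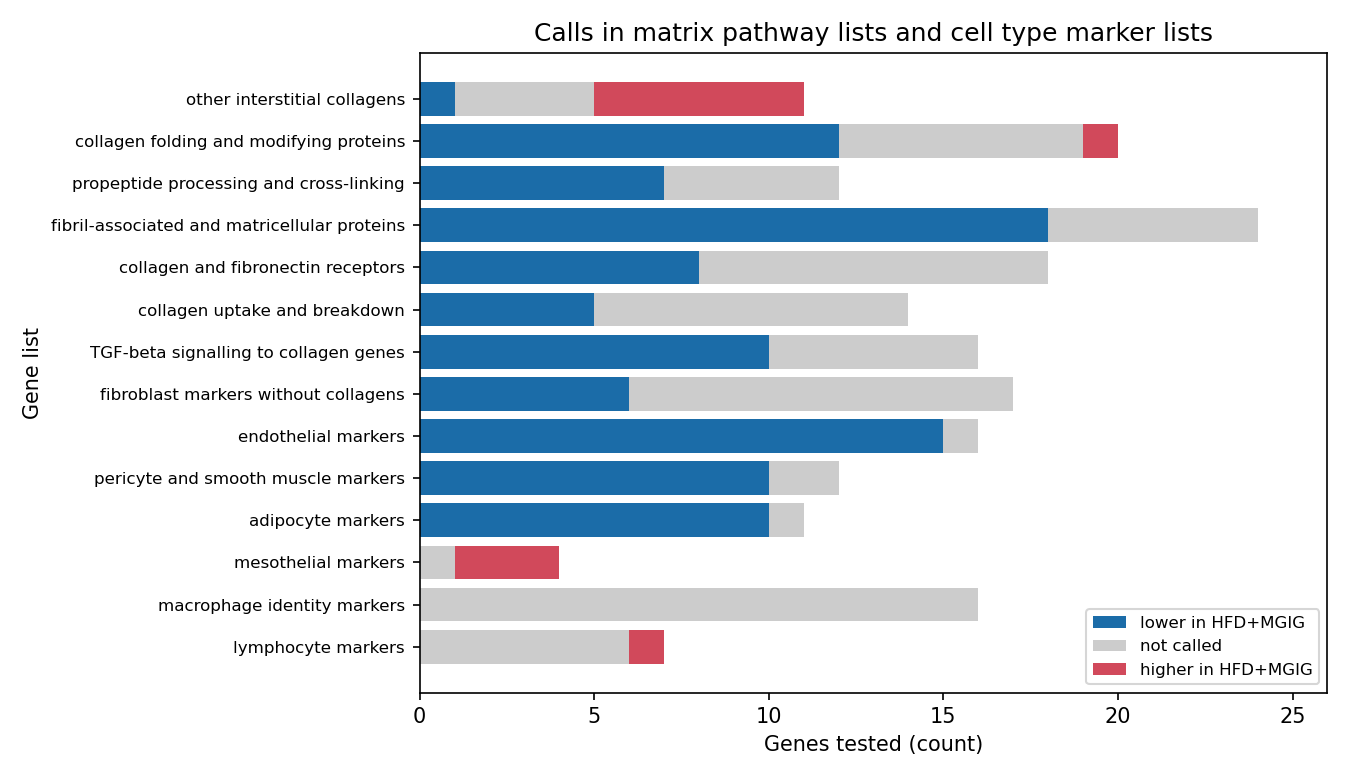
Number of tested genes called lower (blue), not called (grey) and called higher (red) in HFD+MGIG by edgeR at an adjusted p under 0.05, for the 7 lists of collagen biology and the 7 cell type marker lists, with the 10 genes of the set left out. Blue prevails in 10 or more genes for folding proteins, matricellular proteins, TGF-beta signalling, endothelial, pericyte and adipocyte markers, and red in other interstitial collagens and mesothelial markers.

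Macrophage identity markers were present in every library, and endothelial, pericyte and adipocyte markers were mostly lower in HFD+MGIG, as the matrix genes were. The summed level of 16 macrophage markers was 17891 to 20152 CPM in HFD and 7616 to 19355 CPM in HFD+MGIG, with none at 0 in any library. In edgeR's test 0 of the 16 were called in either direction (2 at an unadjusted p under 0.05, 5 lower by DESeq2 and 7 lower by limma voom, and in edgeR 7 lower without HFD+MGIG 2, 3 without HFD+MGIG 1 and 1 without HFD 1). These 16 markers had a median log2 fold change of −0.74, against −0.53 over the protein-coding genes, of which 26.8% were called lower. Endothelial markers were the most uniform, with 15 of 16 lower. Their summed level was 3021 to 3458 CPM in HFD and 652 to 1228 CPM in HFD+MGIG, with none at 0 in any library. Of the pericyte and smooth muscle markers 10 of 12 were lower (1600 to 2422 against 616 to 1048 CPM), and of the adipocyte markers 10 of 11 (4120 to 6599 against 1730 to 2588 CPM; 6 lower without HFD 3), again with none at 0. On the background-limited scale 7 of 8 endothelial, 2 of 6 pericyte and 1 of 6 adipocyte markers were lower, against 6.26% of that fit's genes. A gene can enter that fit through its HFD level alone, so these counts do not leave background aside. Cdh5, called there, averaged 21.0 CPM in HFD+MGIG, under its bound of 26.9 CPM.

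Fibroblast markers other than collagens, the cell type best known for the set, were less uniform. Of 17 genes 6 were lower in edgeR's test and 0 higher, against 26.8% of protein-coding genes lower. The list had a median log2 fold change of −0.66, 8 genes at an unadjusted p under 0.05 and 7 lower by DESeq2. The lower count was 1 without HFD 1 or without HFD+MGIG 3, 3 without HFD 3 and 10 without HFD+MGIG 2. With at least 5 CPM in 3 libraries it was 1 of 14, and on the background-limited scale 0 of 7 (1 at an unadjusted p under 0.05), with a median of 0.11. Their summed level was 4108 to 7265 CPM in HFD and 2838 to 4310 CPM in HFD+MGIG, which overlap, and none was at 0 in any library. Pdgfrb, a growth factor receptor shared with pericytes, was lower (68.4 ± 6.60 and 22.7 ± 11.2 CPM, −1.83, adjusted p of 0.00236 in edgeR), while Pdgfra, the receptor that marks fibroblasts, had 37.2 ± 11.3 and 28.8 ± 2.87 CPM (adjusted p of 0.0640 in edgeR; called without HFD+MGIG 1 at 0.0452 or HFD+MGIG 2 at 0.0376), below its bound of 64.2 CPM in HFD+MGIG. Mesothelial and lymphocyte markers were low, at 1.43 to 4.002 and 16.97 to 48.1 summed CPM in HFD. In HFD+MGIG they were at 17.4 to 60.1 and 40.5 to 144 CPM, and the mesothelial marker Upk1b was at 0 in every HFD library. Mean HFD+MGIG levels were under their bounds for Msln (17.7 against 19.6 CPM), Lrrn4 (4.97 against 23.8) and Krt19 (3.21 against 11.9). Among lymphocyte markers this held for Ms4a1 (34.4 against 39.6), Cd3e (5.48 against 26.1) and Cd3d (3.33 against 11.6), but not for Cd79a (18.5 against 9.33). The part of the background in these markers was not tested.

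Within a library, the 8 collagens summed to 0.411 to 0.533 of the fibroblast marker level in HFD and to 0.106 to 0.170 in HFD+MGIG. That marker level is a sum of CPM that rests largely on Gsn and Dcn. They held 5082 and 1158 of 7265 CPM in HFD 1, and 2461 and 1193 of 4310 CPM in HFD+MGIG 1. The collagens were lower relative to endothelial markers as well, by less, with 0.633 to 0.928 against 0.461 to 0.595. Relative to macrophage markers they were also lower, with 0.106 to 0.167 against 0.0351 to 0.0394. The same held for pericyte markers, 0.993 to 1.34 against 0.488 to 0.696, and for adipocyte markers, 0.450 to 0.531 against 0.174 to 0.354. Sparc was lower without overlap relative to fibroblast markers, 0.215 to 0.316 against 0.116 to 0.135, to macrophage markers, 0.0552 to 0.0871 against 0.0258 to 0.0467, and to pericyte markers, 0.589 to 0.695 against 0.477 to 0.577. Relative to endothelial markers its libraries overlapped, at 0.368 to 0.484 on the diet alone and 0.425 to 0.545 with MGIG. They also overlapped relative to adipocyte markers, at 0.234 to 0.315 on the diet alone and 0.202 to 0.260 with MGIG. Fn1 was lower relative to fibroblast markers, 0.0530 to 0.0877 against 0.0371 to 0.0490, and to macrophage markers, 0.0162 to 0.0215 against 0.00970 to 0.0138. It was higher relative to endothelial markers, 0.0863 to 0.140 against 0.155 to 0.164. It overlapped relative to pericyte markers, 0.135 to 0.265 against 0.171 to 0.200, and to adipocyte markers, 0.0584 to 0.0893 against 0.0608 to 0.0977. The part of each cell type in the difference of the matrix genes was not tested.

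The genes whose levels followed the mean of the set most closely were not all matrix genes. Among 9886 other protein-coding genes with a mean of at least 10 CPM, the 10 with the highest Pearson's r over the 6 libraries were Pdgfb, Ctnnbip1, Aoc3, Enoph1, Gja4, Fermt2, Tinagl1, Aaed1, Plpp3 and Col4a2, with r between 0.996 and 0.998. Gja4 encodes an endothelial gap junction protein and had 34.3 ± 2.79 and 12.5 ± 3.43 CPM. Col4a2, a basement membrane collagen chain, had 110.0 ± 16.0 and 24.2 ± 9.42 CPM. Of the candidates, 955 of the 9886 genes had r above 0.95.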

How the data were processed

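RNA was measured in 3 HFD and 3 HFD+MGIG libraries of adipose tissue macrophages, made with a SMART-Seq v4 kit from low RNA input, per the labels' protocols. The values deposited by the authors are estimated counts of each gene, not all of them whole. The tools fastp, HISAT2 and StringTie and the build mm10 are named in the submitters' processing notes. The sources used here do not give versions or the counting program. Counts were rounded (ties upward), and 51884 of 57180 IDs matched GENCODE M21 (mm10). Groups were compared by the quasi-likelihood test of edgeR (version 4.0.16, R 4.3.3, robust, TMM, filterByExpr, all 6 libraries, Benjamini-Hochberg over all tested genes, threshold 0.05). A check on simulated counts was built on HFD means without added background, so it does not cover the background of HFD+MGIG. SE is the log2 fold change over the square root of F. Alternatives were RLE factors, library totals, no filter, 5 CPM in 3 libraries, DESeq2 1.42.0, limma 3.58.1 voom with sample weights, a block for the replicate number, background-limited genes (protein-coding, outside the silent families, at least 2 exon blocks), and each library left out. From each list the 3 most abundant genes and up to 2 called with the smallest p per direction could be named; the text names a part of these, picked with values known. The rounding, the genes of the set, the lists and the tests were chosen with earlier results of these data known. Sequences came from GENCODE M21 transcripts. A search of promoters for common motifs was made and is not reported. Depth limits HFD+MGIG, where 1 count is worth 0.204 to 0.452 CPM.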

Additional observations from a re-analysis of the deposited data

How the results depend on the processing

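The log2 fold changes of the 10 genes stayed below 0 under all 14 alternative settings: of 136 values, 122 moved by less than 1 SD of the replicates, 14 moved by more and 0 changed sign. Their median was −1.98, −1.17 for the 6 genes in the background-limited fit, and −1.78 to −2.12 with single libraries left out. Fn1 was not among the genes called in the background-limited fit, without HFD 3 or without HFD+MGIG 3. Col5a2 was not among them with at least 5 CPM in 3 libraries. Genes called lower over all filtered genes, 4113, came to 2426 with library totals, 1574 with at least 5 CPM in 3 libraries, 6880 with limma voom, 163 in the background-limited fit, and 2122 to 5563 with single libraries left out. Genes called higher, 9902, came to 10428 with library totals, 18253 without a filter, 4582 with at least 5 CPM, 117 in the background-limited fit, and 9645 to 12351 with single libraries left out. The pathway genes called lower, 61, came to 38 with at least 5 CPM, 12 in the background-limited fit and 39 to 70 with single libraries left out, and those called higher, 7, to 12 with library totals, 11 with limma voom and 2 in the background-limited fit. The cause was not tested, except that the stricter filter and the background-limited fit test fewer genes. With library totals in place of TMM the median of all genes moved from 0.38 to 0.74. With the replicate number as a block the replicate block fit gave 4312 genes lower, 9833 higher and a median of −2.04 for the set. Deviations from the group means of same-numbered libraries correlated at 0.0864, 0.268 and 0.0910, while HFD 1 correlated best with HFD+MGIG 3 (0.157). Deviations within a group of 3 libraries depend on each other, so these values cannot decide whether same-numbered libraries are paired. Transcript length in place of exon length moved 19 of 28 ratio means by more than 1 SD, by a constant factor per ratio, and 5 of the 10 most similar genes were shared with a floor of 50 CPM. The low totals of HFD+MGIG limit values near the bound.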
